A study of Mus musculus with 8 samples.

Results

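The 48 genes described here belong to the major histocompatibility complex (MHC) and to antigen presentation. They are every gene whose symbol in the files begins with H2-, together with B2m, Tap1, Tap2, Tapbp, Cd74 and Ciita, and make up 48 of 22552 gene symbols. By role they comprise 30 class I heavy chain genes or gene copies, 10 class II chain genes, 4 partners of class I (B2m, Tap1, Tap2 and Tapbp) and 2 partners of class II (Cd74 and Ciita). The other two, H2-Ke2 and H2-Ke6, carry the prefix because they lie in the MHC, and encode no MHC molecule.

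Ribosome-bound RNA was pulled down from UCP1-positive fat cells with an antibody against GFP (translating ribosome affinity purification, TRAP) and sequenced from 3 libraries of inguinal white adipose tissue (WAT), 2 of perigonadal WAT and 3 of brown adipose tissue (BAT). UCP1 is the uncoupling protein that lets brown and beige fat cells produce heat. The donors of every group were 6-week-old females, labelled C57B/6 UCP1-TRAP. They were born at 30 °C, kept at room temperature from weaning at 3 weeks, and spent the 2 weeks from the age of 4 weeks at 4 °C. All libraries therefore share the cold, and no library of warm mice or of unbound RNA was used here. The labels do not say which sequences drive the tag, whether mice were pooled, or whether libraries of a group came from separate animals, so each p-value rests on the spread of the libraries alone, which may be technical.

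Class I molecules sit on nearly all nucleated cells and show peptides from inside the cell to CD8 T cells. A class I molecule is a heavy chain bound to beta-2 microglobulin (B2m), and its peptides are pumped into the endoplasmic reticulum by the transporter of Tap1 and Tap2 and loaded with the help of tapasin (Tapbp). Class II molecules are an alpha and a beta chain, escorted by the invariant chain Cd74 and switched on by the coactivator Ciita, and are made mainly by dendritic cells, macrophages and B cells, although adipocytes have also been described to carry them.

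Expression is given as FPKM, fragments scaled to the length of the transcript and to the size of the library, summed over the transcripts of a gene. An estimated 276693 to 1196472 fragments per library lay on listed transcripts, with inguinal replicate 3 at the low end and perigonadal replicate 1 at the high end, and FPKM totals ran from 75925 to 206549. These totals go with a shift of the median gene, but not of every gene. In inguinal replicates 1, 2 and 3, B2m was at 123, 132 and 43.8 FPKM. H2-Eb1 was at 3.6, 3.19 and 4.2 in the same libraries, and the mammary epithelial gene Expi at 63.5, 55.2 and 63.7. The median log2 difference over the 8958 genes tested was 0.03 between inguinal WAT and BAT and 0.52 between perigonadal WAT and BAT on the deposited scale, and 0.00 and 0.01 after median-ratio scaling, in which each library is divided by its median ratio to the average library. Results are therefore given on both scales. Ucp1 was at 592 to 1590 FPKM in all 8 libraries, so the transcript that defines the purified cells was abundant in each.

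Of the 48 genes, 19 passed the filter for testing (2 or more libraries at an FPKM of 1 or higher). The upstream sequences of B2m and of the 3 heavy chains with the highest mean FPKM are shown first, since class I heavy chains and B2m are known to share promoter elements. Each run is the 250 bases before the RefSeq start site of GRCm38.p6, the 3′-most site where a gene has several. Matches to the core of enhancer A and to 2 forms of the interferon response element are in capitals. The windows are chr17:34000334-34000583 (minus strand) for H2-K1, chr17:35262844-35263093 (plus) for H2-D1, chr17:35469839-35470088 (plus) for H2-Q10 and chr2:122147437-122147686 (plus) for B2m.
H2-K1: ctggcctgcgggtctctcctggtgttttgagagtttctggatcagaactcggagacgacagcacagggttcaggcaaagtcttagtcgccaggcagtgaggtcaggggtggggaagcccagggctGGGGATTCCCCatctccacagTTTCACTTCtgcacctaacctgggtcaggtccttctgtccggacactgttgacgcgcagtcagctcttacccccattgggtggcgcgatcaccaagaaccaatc
H2-D1: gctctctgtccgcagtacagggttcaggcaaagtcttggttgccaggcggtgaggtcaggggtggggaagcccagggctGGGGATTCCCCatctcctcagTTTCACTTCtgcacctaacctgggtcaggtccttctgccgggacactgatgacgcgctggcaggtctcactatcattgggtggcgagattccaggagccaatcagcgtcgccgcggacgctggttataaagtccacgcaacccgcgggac
H2-Q10: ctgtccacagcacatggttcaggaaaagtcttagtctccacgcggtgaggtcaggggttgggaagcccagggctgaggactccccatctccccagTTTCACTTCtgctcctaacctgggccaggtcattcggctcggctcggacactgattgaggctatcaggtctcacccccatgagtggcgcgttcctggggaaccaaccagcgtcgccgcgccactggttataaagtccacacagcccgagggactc
B2m: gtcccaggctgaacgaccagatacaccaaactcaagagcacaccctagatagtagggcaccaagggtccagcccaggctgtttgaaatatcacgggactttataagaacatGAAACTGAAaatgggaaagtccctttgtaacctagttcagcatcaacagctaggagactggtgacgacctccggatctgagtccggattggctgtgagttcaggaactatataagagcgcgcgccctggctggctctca

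The core of enhancer A was taken as the bases GGGGATTCCCC of H2-K1 itself, so its match in H2-K1 was given. H2-D1 held the same bases. Of 32851 mouse promoter windows of this length, H2-K1 included, 0.0304 percent held them on either strand. In H2-Q10 the 11 bases at the same distance from the next element read GAGGACTCCCC, which differs from H2-K1 by G2A and T6C, counted from the 5′ end of the 11 bases. B2m held no exact copy of these H2-K1 bases, and looser matches were not searched for. The interferon element in the form GAANNGAAA was present as its reverse complement in H2-K1, H2-D1 and H2-Q10, and 6.31 percent of windows held it on either strand. B2m held the form GAAANNGAA, found in 7.13 percent of windows on either strand. A promoter window was available for 33 of the 48 genes, 3 of them with the core (H2-Q6 is the third) and 7 with GAANNGAAA, all 7 among the 21 class I genes with a window. A gene counted here if any of its windows matched, whereas the percentages above are of single windows. Such matches describe letters and show no binding.

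B2m was the most abundant of the 48 genes in every depot, and it was higher in both WAT depots than in BAT. B2m (chr2:121973423-121978818 in mm9, the build of the files) stood at 123, 132 and 43.8 FPKM in inguinal WAT, at 193 and 149 in perigonadal WAT and at 36.8, 33.7 and 35.5 in BAT. All 5 WAT libraries exceeded all 3 BAT libraries, with inguinal replicate 3 close to BAT. Of all tested genes, 6.81 percent were higher in every inguinal library than in every BAT library, and 48.3 percent in both perigonadal libraries. The group means were 99.5 ± 48.4 (SD, n = 3), 171 ± 31.0 (SD, n = 2) and 35.3 ± 1.58 FPKM (SD, n = 3), a ratio to BAT of 2.82 and 4.84. In limma on log2(FPKM + 1), the difference from BAT was 1.32 ± 0.38 (SE, adjusted p = 0.0467) in inguinal WAT and 2.23 ± 0.43 (SE, adjusted p = 0.000203) in perigonadal WAT. After scaling the differences were 1.31 (adjusted p = 0.00262) and 1.56 (adjusted p = 0.00239). The inguinal call on the deposited scale was marginal: limma gave adjusted p-values of 0.0577 to 0.363 when any 1 library other than inguinal replicate 3 was left out, and 7.04e-05 without inguinal replicate 3. In pulled-down bulk RNA, fewer cells with a transcript and less of it per cell cannot be told apart.

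**Figure D1:**
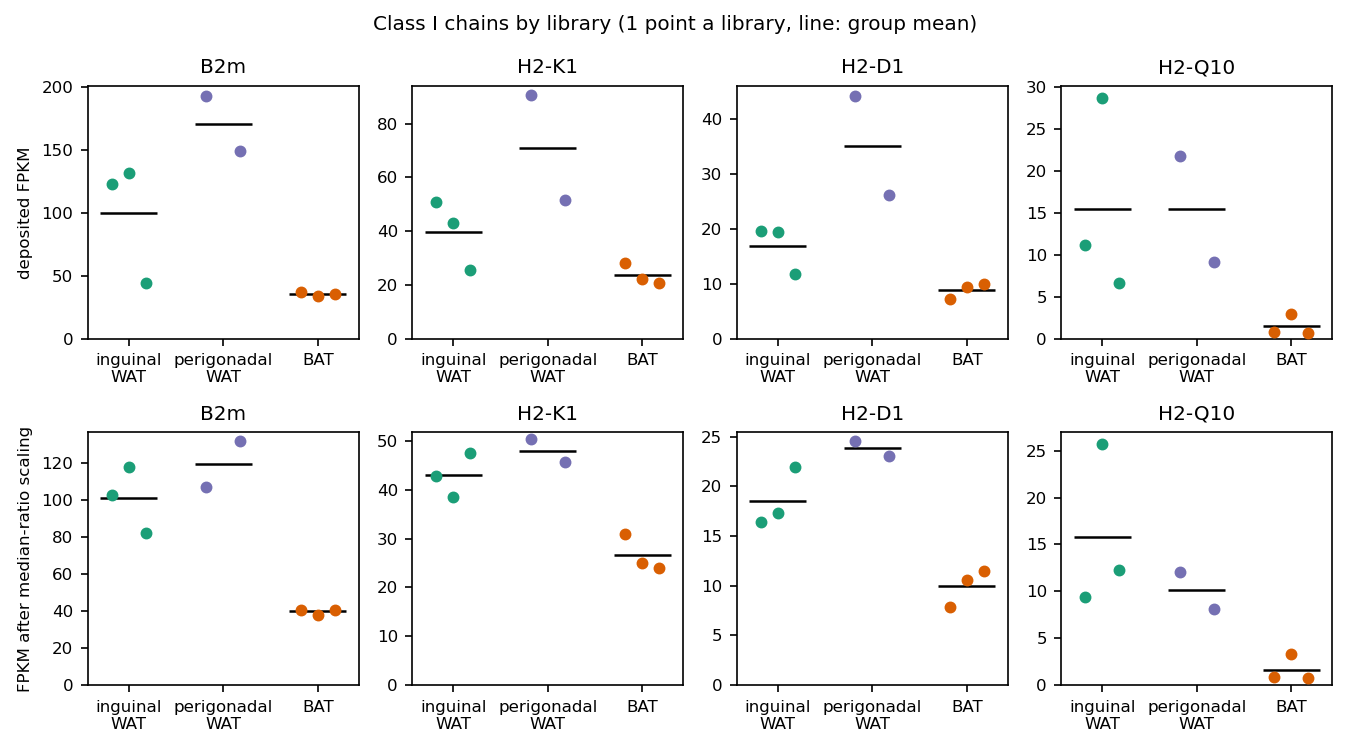
FPKM of B2m, H2-K1, H2-D1 and H2-Q10 in each library (points) with the group mean (line), as deposited (top row) and after median-ratio scaling (bottom row). On the scaled axis every WAT library lies above every BAT library for all 4 genes. For H2-K1 and H2-D1, inguinal replicate 3 moves from the lowest inguinal library as deposited to the highest after scaling.

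The classical heavy chains H2-K1 and H2-D1, which present peptides to CD8 T cells, had the highest mean in perigonadal WAT and the lowest in BAT on the deposited scale. H2-K1 (chr17:34132957-34137278) was at 51.0, 42.9 and 25.4 FPKM in inguinal WAT, 90.6 and 51.5 in perigonadal WAT and 28.2, 22 and 20.7 in BAT. The perigonadal libraries lay above all BAT libraries, while inguinal replicate 3 fell within the BAT range. H2-D1 (chr17:35400039-35404442) was at 19.6, 19.3 and 11.7 FPKM in inguinal WAT, 44.1 and 26.1 in perigonadal WAT and 7.14, 9.35 and 10 in BAT, with no overlap between WAT and BAT. With 48.3 percent of tested genes higher in both perigonadal libraries than in BAT, separation alone says little in that comparison.

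In perigonadal WAT both heavy chains were higher than in BAT, with log2 differences of 1.5 ± 0.44 for H2-K1 (SE, limma adjusted p = 0.0286) and 1.84 ± 0.45 for H2-D1 (SE, limma adjusted p = 0.0061). After scaling they were 0.84 (adjusted p = 0.0283) and 1.19 (adjusted p = 0.0112). Without perigonadal replicate 1, the deepest library, neither passed on the deposited scale (limma adjusted p = 0.859 for H2-K1 and 0.461 for H2-D1). H2-D1 also missed the threshold without BAT replicate 1 (0.0654), and H2-K1 without BAT replicate 1, 2 or 3 (0.0731, 0.129 and 0.145). In inguinal WAT the deposited values gave log2 differences of 0.68 for H2-K1 (limma adjusted p = 0.732) and 0.84 for H2-D1 (limma adjusted p = 0.538), neither past the threshold. The same differences of 0.68 and 0.84 passed after scaling, at adjusted p-values of 0.0494 and 0.0352, with SE down from 0.40 to 0.17 and from 0.41 to 0.19.

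H2-Q10 showed the widest difference between WAT and BAT of the 19 tested genes on the log2(FPKM + 1) scale. It encodes a class I heavy chain known mainly as a soluble protein secreted by the liver. H2-Q10 (chr17:35607034-35611508) was at 11.2, 28.7 and 6.56 FPKM in inguinal WAT, 21.8 and 9.17 in perigonadal WAT and 0.733, 2.94 and 0.639 in BAT. Every WAT library exceeded every BAT library, and the BAT values rested on an estimated 1.7 to 8.1 fragments each, against 18.3 to 82.4 in WAT. The mean ratio to BAT was 10.8 in both depots, while H2-Q8, at far lower levels, had a ratio of 13.6 in perigonadal WAT. In limma the log2 difference was 2.65 ± 0.44 in inguinal WAT (SE, adjusted p = 1.33e-05) and 2.77 ± 0.49 in perigonadal WAT (SE, adjusted p = 4.52e-05), and 2.70 (adjusted p = 0.00513) and 2.20 (adjusted p = 0.02) after scaling. It passed in both comparisons with any 1 library left out. With no filter on low FPKM it did not (limma adjusted p = 0.166 and 0.131).

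The share of H2-Q10 in the summed class I FPKM does not depend on scaling between libraries. It was 10.9, 26.4 and 13.1 percent in inguinal WAT, 11.5 and 8.92 percent in perigonadal WAT and 1.69, 6.71 and 1.39 percent in BAT, without overlap between WAT and BAT. H2-K1 and H2-D1 together held 57.3 to 81.3 percent of the class I sum, with the depots overlapping.

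The other Q-region genes, nonclassical heavy chains next to H2-D1, were low. H2-Q6 was at 1.58, 3.13 and 0.942 FPKM in inguinal WAT, 3.81 and 2.24 in perigonadal WAT and 0.64, 0.194 and 0.413 in BAT. H2-Q8 was at 1.07, 0.917 and 0.0198 FPKM in inguinal WAT, 2.86 and 1.61 in perigonadal WAT and 0.0682, 0.319 and 0.107 in BAT. Both passed in perigonadal WAT against BAT on the deposited scale, at log2 differences of 1.49 (limma adjusted p = 0.0226) and 1.45 (limma adjusted p = 0.0235), and in no inguinal comparison. Neither reached 1 FPKM in any BAT library, so both entered the test only through the WAT libraries, in which they were high. Neither passed after scaling (adjusted p = 0.053 and 0.0819). On the deposited scale both also missed the threshold without perigonadal replicate 1 (0.551 and 0.596) or without any 1 of the 3 BAT libraries (0.0512 to 0.121 for H2-Q6 and 0.0508 to 0.102 for H2-Q8). H2-Gs10, listed in RefSeq as a synonym of H2-Q4, was at 2.35, 3.68 and 0.515 FPKM in inguinal WAT, 11.5 and 2.56 in perigonadal WAT and 1.56, 0.597 and 2.46 in BAT. Perigonadal replicate 1 alone was far above the rest, and the difference from BAT of 1.46 missed the threshold (limma adjusted p = 0.0505).

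Values of single Q and T genes are uncertain because fragments of near-identical copies are divided between them. The extent can be read from shared sequence: of all 50-base windows in a gene's longest protein-coding transcript (GENCODE vM21), the percentage also found in a transcript of another gene was 8.79 for H2-K1, 14.3 for H2-D1, 8.03 for H2-Q10, 32.0 for H2-Q6, 24.3 for H2-Q4, 42.9 for H2-T10 and 44.7 for H2-T22. H2-T10 and H2-T22 shared mostly with each other. B2m, Cd74, H2-Aa, H2-Ab1 and H2-Eb1 shared no window with another gene. Of the 19 tested genes, 17 had such a transcript. H2-Q8 and H2-T9 did not, so their sharing was not measured. H2-K1, H2-D1 and H2-Q10 thus shared fewer exact windows than the weaker Q and T genes measured. Windows that differ by any base count as distinct here, so the percentages may understate how alike the copies are.

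H2-T22, a nonclassical chain known as a ligand of some gamma delta T cells, and H2-T9 show how far such a division can go. Both are placed at the same locus in mm9, H2-T22 at chr17:36175354-36179647 and H2-T9 at chr17:36175354-36179637. H2-T22 was at 8.26, 5.23 and 0 FPKM in inguinal WAT, 0 and 4.62 in perigonadal WAT and 3.22, 3.77 and 3.16 in BAT when rounded, while H2-T9 was at 0, 0 and 2.23, at 4.82 and 0, and at 0, 0 and 4.15. In 7 of the 8 libraries essentially all signal went to 1 of the pair, and in BAT replicate 3 it was split. Their sum was 8.26, 5.23 and 2.23 FPKM in inguinal WAT, 4.82 and 4.62 in perigonadal WAT and 3.22, 3.77 and 7.31 in BAT, and the depots overlapped. No direction is read from the log2 differences of either gene alone, since those of H2-T22 against BAT in perigonadal WAT were 0.36 or -2.13 depending on which perigonadal library was left out. The third T gene tested, H2-T10, was at 4.13, 2.78 and 1.21 FPKM in inguinal WAT, 4.85 and 3.55 in perigonadal WAT and 1.52, 2.91 and 4.34 in BAT, again overlapping.

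**Figure D2:**
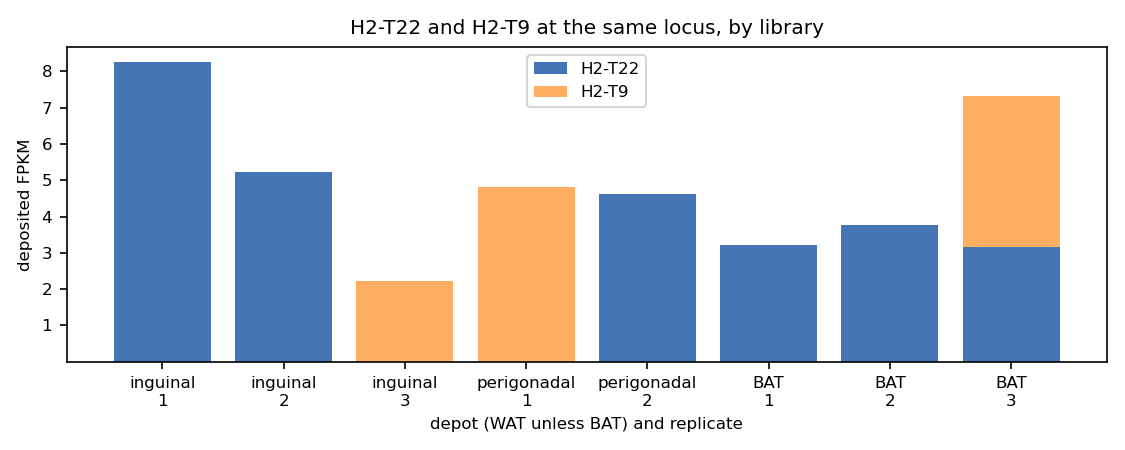
Deposited FPKM of H2-T22 and H2-T9, stacked, in each of the 8 libraries. One colour fills nearly the whole bar in 7 libraries, with H2-T9 taking it in inguinal replicate 3 and perigonadal replicate 1, and BAT replicate 3 shows both.

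The remaining 21 class I genes did not pass the filter, and 9 of them were at 0 in all libraries. H2-T23, the Qa-1 chain that shows class I leader peptides, was at 0.873, 0.312 and 1.22 FPKM in inguinal WAT, 0.939 and 0.286 in perigonadal WAT and 0 in all 3 BAT libraries. The inguinal mean was 1.91 times and the perigonadal mean 1.46 times a floor of 3 fragments over the BAT group. That floor allows for counting error in BAT only. The WAT values rested on an estimated 0.8 to 3.2 fragments each, so these ratios are no lower bounds. The perigonadal ratio rests on replicate 1, without which the value of 0.286 lies under the floor of 0.419 FPKM. H2-Q9, whose locus overlaps that of H2-Q7, reached 1.16 FPKM in inguinal replicate 1 and was 0 in BAT. All 12 M-region genes stayed below 0.5 FPKM in every library, and 8 of them were at 0 throughout. H2-Q7, H2-Q2, H2-T24, H2-T3, H2-Bl and the non-coding copy H2-K2 stayed below 1 FPKM, and H2-Q1 was at 0 throughout.

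The peptide transporter genes and tapasin did not pass the test in either WAT depot. Tap1 was at 2.02, 0.733 and 0.706 FPKM in inguinal WAT, 1.68 and 0.943 in perigonadal WAT and 0.852, 0 and 0.656 in BAT. Tap2 was at 4.44, 2.45 and 1.45 FPKM in inguinal WAT, 5.29 and 4.03 in perigonadal WAT and 1.85, 2.39 and 3.12 in BAT. Tapbp was at 19.2, 13.6 and 7.33 FPKM in inguinal WAT, 29.7 and 18.4 in perigonadal WAT and 13.2, 15 and 13.1 in BAT. Inguinal values of all 3 genes overlapped those of BAT, and the perigonadal ones lay above them. The log2 differences in perigonadal WAT were 0.65, 0.72 and 0.73 (limma adjusted p = 0.336, 0.311 and 0.326), near the 0.52 of the median gene. After scaling these were 0.33, 0.19 and 0.08.

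Ratios within a library put the partners against the heavy chain with no scaling between libraries. B2m over H2-K1 was 2.41, 3.07 and 1.72 in inguinal WAT, 2.13 and 2.90 in perigonadal WAT and 1.31, 1.53 and 1.71 in BAT, a narrow separation. Tapbp over H2-K1 was 0.376, 0.316 and 0.288 in inguinal WAT, 0.328 and 0.357 in perigonadal WAT and 0.467, 0.682 and 0.63 in BAT. Every WAT library was thus below every BAT library in tapasin per H2-K1 and above in B2m per H2-K1. H2-D1 over H2-K1 overlapped, at 0.384 to 0.462 in inguinal WAT, 0.487 and 0.506 in perigonadal WAT and 0.253 to 0.483 in BAT. The mean of H2-K1 was itself higher in WAT, so a gene at equal levels would tend to a lower ratio there. The share of all genes that separate in such ratios was not counted.

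**Figure D3:**
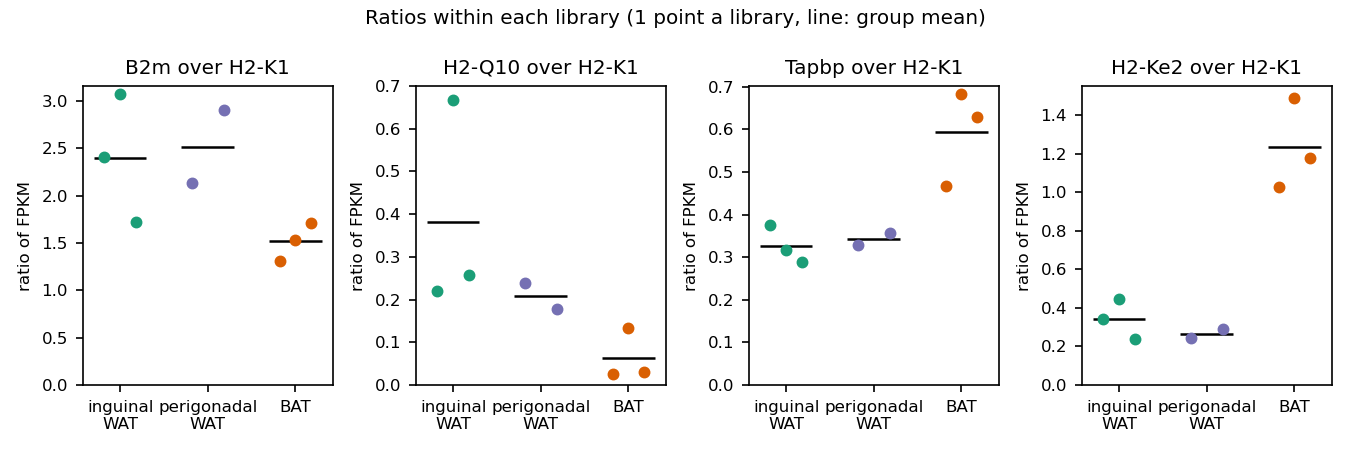
FPKM of B2m, H2-Q10, Tapbp and H2-Ke2 divided by that of H2-K1 in the same library (points) with the group mean (line). WAT and BAT libraries do not overlap in any of the 4 ratios plotted, the first 2 being higher and the last 2 lower in WAT. The ratio of H2-D1 to H2-K1, which is not plotted, overlapped.

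Summed over all 30 genes, class I was at 103, 109 and 50 FPKM in inguinal WAT, 189 and 103 in perigonadal WAT and 43.4, 43.7 and 46.2 in BAT. All WAT libraries were higher than all BAT libraries, with inguinal replicate 3 just above. The means were 87.1 ± 32.3 (SD, n = 3), 146 ± 60.7 (SD, n = 2) and 44.5 ± 1.49 (SD, n = 3), or 1.96 and 3.28 times BAT. After scaling the means were 92.5 ± 5.64, 98.0 ± 9.87 and 50.2 ± 2.73, so that the depots of WAT came together and the log2 difference of perigonadal WAT from BAT fell to 0.97 from 1.71. Sums get no test here.

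Class II chains were low in every depot, and none of those tested differed between depots by limma. H2-Aa, the alpha chain of I-A, was at 2.97, 4.82 and 3.84 FPKM in inguinal WAT, 2.53 and 0.559 in perigonadal WAT and 1.33, 0.639 and 3.94 in BAT. Its beta chain H2-Ab1 was at 0.99, 0.995 and 1.72 FPKM in inguinal WAT, 2.0 and 2.13 in perigonadal WAT and 1.55, 0.346 and 0.355 in BAT. H2-Eb1, the beta chain of I-E, was at 3.60, 3.19 and 4.20 FPKM in inguinal WAT, 3.79 and 4.48 in perigonadal WAT and 2.53, 2.44 and 4.44 in BAT. Inguinal WAT and BAT overlapped for all 3 chains, and perigonadal WAT lay above BAT for H2-Ab1 only. The largest log2 differences from BAT were 0.86 for H2-Aa in inguinal WAT (limma adjusted p = 0.506) and 0.87 for H2-Ab1 in perigonadal WAT (limma adjusted p = 0.215). The values rested on an estimated 0.8 to 16.3 fragments per gene and library.

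H2-Ea-ps, the I-E alpha pseudogene of this strain background, was at 0 in all 8 libraries, as were H2-Eb2 and H2-Oa. The peptide-exchange chains H2-DMa, H2-DMb1 and H2-DMb2 were at 0 in all 3 BAT libraries and in inguinal replicate 3. H2-DMa was at 0.603 and 0.628 FPKM in inguinal replicates 1 and 2 and at 0 and 0.58 in perigonadal WAT. H2-DMb1 was at 1.38 and 0.756 FPKM in inguinal replicates 1 and 2 and at 0.0925 and 0.345 in perigonadal WAT. The inguinal mean was 1.65 times the BAT floor of 0.43 FPKM, but rested on an estimated 3.5 and 1.9 fragments, so this is no lower bound. Without inguinal replicate 1 the mean of 0.378 lies under that floor. For H2-DMa the group means were below its own floor of 0.707 FPKM, so its absence in BAT was not distinguishable from low depth. H2-DMb2 and H2-Ob reached at most 0.638 and 0.241 FPKM.

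The invariant chain Cd74 was at 2.19, 4.27 and 1.90 FPKM in inguinal WAT, 6.27 and 2.14 in perigonadal WAT and 4.57, 1.52 and 3.41 in BAT. The depots overlapped, and the log2 differences from BAT were -0.12 (limma adjusted p = 0.995) and 0.27 (limma adjusted p = 0.706), the latter -0.26 after scaling. Ciita was at 0, 0.314 and 0.167 FPKM in inguinal WAT, 0.179 and 0 in perigonadal WAT and 0, 0 and 0.0802 in BAT, which corresponds to an estimated 3.1 fragments at most.

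The class II sum was 9.93, 11 and 9.77 FPKM in inguinal WAT, 8.69 and 8.09 in perigonadal WAT and 5.41, 3.43 and 8.73 in BAT. On the deposited scale inguinal WAT lay above BAT and perigonadal WAT overlapped it. After scaling the means were 12.2 ± 5.36 (SD, n = 3), 6.00 ± 1.65 (SD, n = 2) and 6.63 ± 3.14 (SD, n = 3), and the log2 difference of perigonadal WAT from BAT changed sign, from 0.52 to -0.14. Inguinal replicate 3 held the highest scaled class II sum, 18.3, which is its deposited 9.77 divided by a scaling factor of 0.534. The class I sum was 10, 9.85 and 5.12 times the class II sum in inguinal WAT, 21.7 and 12.7 times in perigonadal WAT and 8.03, 12.8 and 5.29 times in BAT. BAT overlapped both WAT depots, and the perigonadal libraries lay above the inguinal ones.

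**Figure D4:**
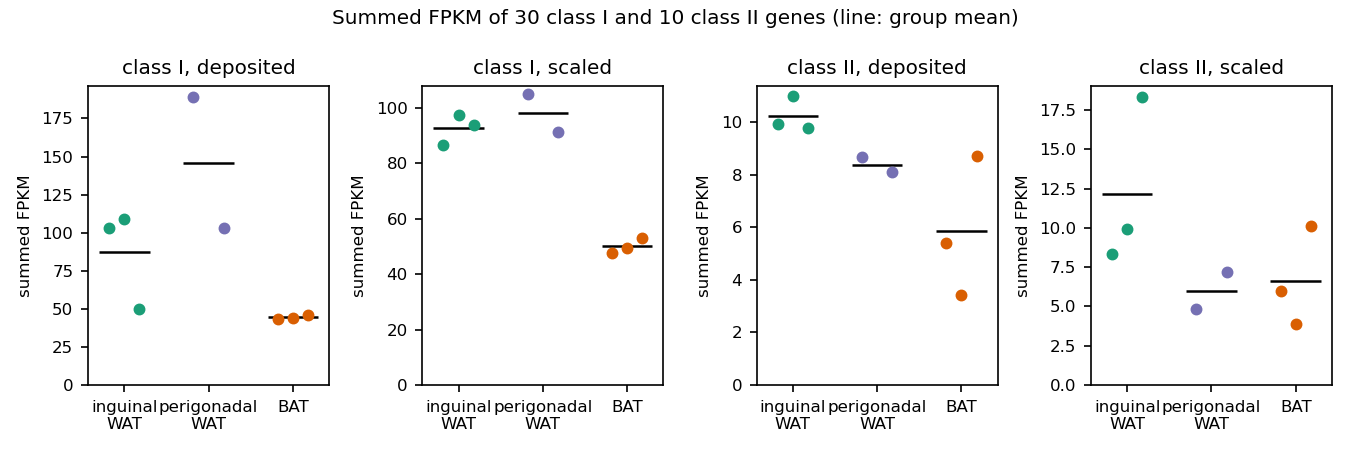
Summed FPKM of the 30 class I and the 10 class II genes in each library (points) with the group mean (line), as deposited and after median-ratio scaling. The scaled class I sums are 86.4 to 105 in WAT and 47.8 to 53.2 in BAT, while scaled class II sums of WAT and BAT overlap.

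Of the 2 genes with the prefix that encode no MHC molecule, H2-Ke2 passed the test after scaling and was lower in WAT. H2-Ke2, RefSeq synonym of the prefoldin subunit gene Pfdn6, was at 17.5, 19.2 and 6.09 FPKM in inguinal WAT, 21.9 and 15 in perigonadal WAT and 28.9, 32.8 and 24.5 in BAT. All WAT libraries were lower than all BAT libraries, though the share of all tested genes that separate in this direction was not counted. The log2 differences of -1.09 and -0.63 did not pass on the deposited scale (limma adjusted p = 0.246 and 0.396), and those of -1.12 and -1.27 did after scaling (adjusted p = 0.00964 and 0.00834). H2-Ke2 over H2-K1 was 0.24 to 0.447 in WAT and 1.03 to 1.49 in BAT. H2-Ke6, a synonym of the hydroxysteroid dehydrogenase gene Hsd17b8, was at 32, 19 and 10 FPKM in inguinal WAT, 34 and 24 in perigonadal WAT and 39, 24 and 25 in BAT, with overlap. Its log2 differences were -0.58 (limma adjusted p = 0.889) and 0.01 (limma adjusted p = 0.989), the latter -0.64 after scaling, and 62.9 percent of its 50-base windows were shared with another gene.

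Counted together, 2 of the 19 tested genes (B2m and H2-Q10) were called in inguinal WAT against BAT, both higher, where 2.2 percent of all 8958 tested genes were called and 1.73 percent were called higher. In perigonadal WAT against BAT, 6 were called (B2m, H2-K1, H2-D1, H2-Q10, H2-Q6 and H2-Q8), all higher, where 5.18 percent of all tested genes were called and 4.91 percent were called higher. H2-Q6, H2-Q8 and the uncalled Tap1 passed the filter through WAT libraries alone, and H2-Q10 reached 1 FPKM in 1 BAT library, so the count and its direction are a description of the genes the filter admitted. After scaling 5 were called in each comparison, B2m, H2-K1, H2-D1 and H2-Q10 higher and H2-Ke2 lower, where 4.72 and 6.25 percent of 8742 tested genes were called. The comparisons share the BAT libraries and are not independent. The median log2 difference of the 9 tested class I genes was 0.46 in inguinal and 1.46 in perigonadal WAT, against 0.03 and 0.52 over all genes, and 0.38 and 0.92 after scaling, against 0.00 and 0.01. For the 3 tested class II genes it was 0.40 and 0.34, and 0.49 and -0.17 after scaling. These medians depend on the filter. With no filter on low FPKM the median of 21 class I genes was 0.19 and 0.32, against 0.03 and 0.32 over all genes. With no filter on low FPKM, 36 of the 48 were tested and limma called 0 in any comparison, with 7, 9 and 2 at an unadjusted p under 0.05 in inguinal WAT against BAT, perigonadal WAT against BAT and inguinal against perigonadal WAT. Of all 15148 genes then tested, 0.0726, 0.772 and 0.0594 percent were called and 7.26, 16.3 and 10 percent had an unadjusted p under 0.05.

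**Figure D5:**
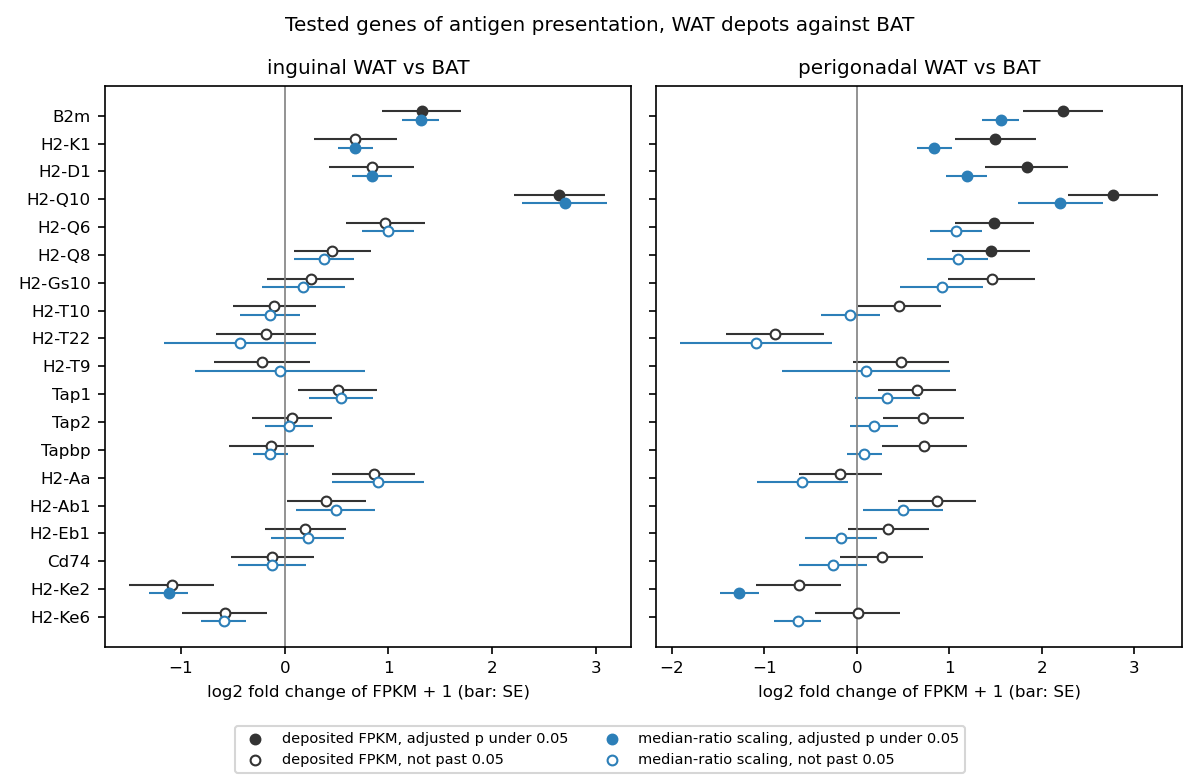
Log2 fold change of FPKM + 1 with its SE for the 19 tested genes, WAT depots against BAT, on the deposited scale (dark) and after median-ratio scaling (blue), with filled points where the limma adjusted p was under 0.05. B2m and H2-Q10 are filled on both scales in both panels, and the class II chains and Cd74 in neither.

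Between the WAT depots none of the 19 was called by limma, where 0.703 percent of all genes were, and 5 had an unadjusted p under 0.05, as had 12.4 percent of all genes. The log2 differences of inguinal from perigonadal WAT were -0.92 for B2m (adjusted p = 0.382), -0.82 for H2-K1 (adjusted p = 0.399), -1.0 for H2-D1 (adjusted p = 0.376) and -0.12 for H2-Q10 (adjusted p = 0.864, and 0.50 after scaling), beside a median of -0.50 over all genes. H2-Gs10 at -1.21 (adjusted p = 0.299) and H2-Aa at 1.04 (adjusted p = 0.366) had the widest gaps. Without perigonadal replicate 2, 3 genes were called, H2-Gs10, H2-T22 and H2-T9, of which the last 2 are the pair whose fragments alternate. After scaling limma called 0, where 0.263 percent of all genes were called, and 1 had an unadjusted p under 0.05, as had 7.65 percent of all genes.

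Other genes of the pathway are given beside the share of all tested genes that was called. That share was 2.2 percent in inguinal WAT against BAT, 5.18 percent in perigonadal WAT against BAT and 0.703 percent between the WAT depots. With lists this short, 0 or 1 call is no result about a list. None of the 17 genes of peptide loading and the proteasome was called in any comparison by limma, and 0, 2 and 0 had an unadjusted p under 0.05 in inguinal WAT against BAT, perigonadal WAT against BAT and inguinal against perigonadal WAT, beside 8.53, 21.5 and 12.4 percent of all genes. The chaperones with the highest levels were Calr at 30.4 to 67.7 FPKM and Hspa5 at 22.7 to 64.0 FPKM over all libraries. Of 20 interferon response genes and class I regulators, 12 were tested and 1 was called, Gbp2, a GTPase induced by interferon gamma. Gbp2 was at 3.06, 2.52 and 1.44 FPKM in inguinal WAT, 4.70 and 1.87 in perigonadal WAT and 0.26, 0.51 and 0.785 in BAT. WAT and BAT did not overlap, and the filter was passed through WAT libraries alone. The perigonadal difference was 1.43 (limma adjusted p = 0.0319), while after scaling the inguinal one of 1.16 passed (adjusted p = 0.0214) and the perigonadal one did not. Ifnar2, a receptor chain for type I interferon with the highest level of the list, was at 9.67 to 29.1 FPKM and was not called, nor was the interferon gamma receptor chain Ifngr1 at 5.5 to 14 FPKM.

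Of 17 genes of class II processing and regulation, 12 were tested, and the lysosomal protease Ctsd was called higher in perigonadal WAT than in BAT (log2 difference 1.10, limma adjusted p = 0.041). Ctsd was at 424, 453 and 247 FPKM in inguinal WAT, 646 and 549 in perigonadal WAT and 269, 288 and 277 in BAT. Of 11 class I-like genes outside the H2 names, 5 were tested, and Mr1, which presents vitamin metabolites, was called higher in perigonadal WAT than in BAT (log2 difference 1.33, limma adjusted p = 0.0423). Mr1 was at 2.72 and 0.991 FPKM there and at 0, 0 and 0.272 in BAT, and passed the filter through WAT libraries alone. Neither passed after scaling. Of the next by level, the protease Ctsb was at 65.6 to 201 FPKM and the lipid-presenting Cd1d1 at 6.27 to 33.7 FPKM, and neither was called. Fcgrt, the neonatal Fc receptor chain that also binds B2m, was at 28.9 to 76.7 FPKM and was not called.

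Markers of other cells were measured beside these results. Leukocyte markers (6 genes, Ptprc among them) summed to 5.13, 3.34 and 2.05 FPKM in inguinal WAT, 4.71 and 1.15 in perigonadal WAT and 0.711, 0.602 and 1.81 in BAT, and 1 of the 6 was tested and none called by limma. The highest were Laptm5 and Coro1a, at up to 2.12 and 2.25 FPKM in inguinal replicate 1. Macrophage markers (13 genes) summed to 5.46 to 7.85, 7.28 to 17.0 and 5.31 to 9.47 FPKM in the same order of depots, with overlap, and of 4 tested Cd14 was called higher in inguinal WAT than in BAT (log2 difference 1.39, limma adjusted p = 0.0234), a gene that reached 1 FPKM in inguinal libraries only. Lyz2, the highest macrophage marker, was at 1.12 to 7.75 FPKM over all libraries. Dendritic cell markers (7 genes) summed to 1.01 to 1.74, 0.469 to 1.86 and under 0.001 FPKM, led by Zbtb46 and Xcr1 with up to 1.35 and 0.308 FPKM. B cell markers (6 genes) summed to 0.378 to 2.28 FPKM in inguinal WAT and 0 in the other depots, and T cell markers (6 genes) to 0.889 to 1.59, 0 to 0.952 and 0 to 0.76 FPKM. Cd79b and Pax5 led the former with up to 1.34 and 0.378 FPKM, and Cd3e and Cd3d the latter with up to 0.887 and 1.08 FPKM. Endothelial markers (7 genes) summed to 1.27 to 4.19, 7.39 to 12.3 and 2.50 to 3.64 FPKM, with Emcn called higher in perigonadal WAT than in BAT (log2 difference 1.40, limma adjusted p = 0.0223). Emcn was above 0 in the 2 perigonadal libraries only and so passed the filter through them. Egfl7 was the highest by level at 0.385 to 3.93 FPKM. Of the 7 adipocyte markers, Fabp4 and Plin1 were called higher in perigonadal WAT than in BAT (log2 differences 0.90 and 1.27, limma adjusted p = 0.0151 and 0.0496), and none after scaling.

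Mammary epithelial markers stood apart in inguinal WAT. The 9 genes summed to 120, 99.0 and 90.3 FPKM there, 2.71 and 1.71 in perigonadal WAT and 0 in all BAT libraries, Expi and Ltf leading by level. In limma 8 of the 9 were called higher in inguinal WAT than in BAT, beside 1.73 percent of all tested genes. All 9 passed the filter through WAT libraries alone, so the direction of these calls was set by the filter. The part of leukocytes, endothelium and epithelium in the class I and class II values was not tested.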

How the data were processed

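Pulled-down RNA of 8 libraries was analysed. The authors aligned reads to mm9 and estimated FPKM per transcript with TopHat and Cufflinks, per the submitters' processing notes, which name no versions. Cufflinks divides fragments among similar transcripts, so values of close copies are uncertain. The 28702 deposited transcript FPKM values per library were summed by gene symbol (22552 genes).

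Genes with an FPKM of 1 or more in 2 or more libraries and a longest transcript of 300 nt or more (8958) were tested on log2(FPKM + 1), which understates changes of low genes, by limma 3.58.1 (R 4.3.3) in 1 model of 3 groups with a variance trend, two-sided, Benjamini-Hochberg at 0.05 within each comparison. The fit was tested on simulated data. The fragment numbers given are estimates from FPKM, transcript length and a factor per library. That factor was set on genes of 1 transcript whose upper confidence bound gave a whole fragment number. Of low values of such genes, 84.4 to 93.3 percent were whole within 0.05 by that bound. The estimates themselves are approximate. In inguinal replicate 1 estimate and bound gave 210.1 and 120 for B2m, and 167 and 249.29 for H2-K1. Counting error is large for low genes. No count test was run, since fragments of similar transcripts are divided. Sequences are from RefSeq and GENCODE and were matched by symbol. Sums were made in numpy 2.4.6 and pandas 2.3.3, and plots in matplotlib 3.10.9, under Python 3.11.15.

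Alternatives covered the pseudocount, both filters, the scaling, the libraries in the fit, the replicate number as a block, the variance trend, the most abundant transcript and each library left out. Median-ratio scaling without inguinal replicate 3 was added after seeing the data. The genes and lists were chosen with earlier results of these data known. Named with every value are the tested genes and the main presentation genes, and of other lists the called genes and, with fewer than 2 called, the 2 highest by mean FPKM.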

Additional observations from a re-analysis of the deposited data

How the results depend on the processing

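The number of the 19 tested genes called against BAT moved with several settings, and the cause was not tested. In inguinal WAT (2 called), 1 was called with a pseudocount of 0.1 or 5, with short genes kept, with only the groups compared, without the variance trend or with the most abundant transcript, 0 with no filter and 5 with median-ratio or quantile scaling. In perigonadal WAT (6 called), 3 were called with a pseudocount of 0.1 and 0 with no filter. With 1 library left out, limma called 1 to 3 in inguinal WAT against BAT, 2 to 9 in perigonadal WAT against BAT and 0 to 3 between the WAT depots. Whether replicate numbers pair the libraries was not settled, with correlations of same-numbered libraries at -0.09 to 0.13. Between inguinal WAT and BAT they were 0.13, 0.08 and 0.1, against -0.08 to -0.03 for differently numbered libraries. With the replicate number as a block 2, 6 and 0 were called, H2-Q8 no longer passing in perigonadal WAT (adjusted p = 0.0677) and H2-T22 passing (-1.39, adjusted p = 0.0444). In inguinal WAT against BAT the limma adjusted p with the block was 0.00527 for B2m and 2.08e-09 for H2-Q10. Over all genes, 197, 464 and 63 were called, against 413, 546 and 23 after median-ratio scaling and 11, 117 and 9 with no filter.

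On the log2 scale, median-ratio scaling moved the class I sum from 1.71 to 0.97 in perigonadal WAT against BAT and from -0.74 to -0.08 in inguinal against perigonadal WAT, and the class II sum from 0.52 to -0.14 and from 0.29 to 1.02. Leaving out 1 library gave 1.21 to 2.09 for class I in perigonadal WAT against BAT.

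Direction changed for differences that were not called. In inguinal WAT against BAT these were Cd74 (0.18) and Tapbp (0.34) with the most abundant transcript, H2-T22 with a pseudocount of 5 (0.07), and H2-T22 (0.49) and H2-Eb1 (-0.17) scaled without inguinal replicate 3. In perigonadal WAT against BAT, median-ratio scaling, quantile scaling and scaling without inguinal replicate 3 gave -0.26, -0.28 and -0.27 for Cd74, -0.17, -0.23 and -0.18 for H2-Eb1, -0.64, -0.41 and -0.65 for H2-Ke6 and -0.07, -0.11 and -0.07 for H2-T10. H2-T9 was at -0.07 with quantile scaling, and H2-Aa at 0.04 and H2-Ke6 at -0.23 with the replicate block. Between the WAT depots H2-Q10 was at 0.50, 0.43 and 0.62 in the same order and 0.21 with the block. With 1 library left out, ranges crossed 0 in inguinal WAT against BAT for Cd74 (-0.44 to 0.13), H2-Gs10 (-0.1 to 0.71), H2-T10 (-0.39 to 0.23), H2-T22 (-0.81 to 0.8), H2-T9 (-0.79 to 0.56), Tap2 (-0.23 to 0.34) and Tapbp (-0.42 to 0.22). They did so in perigonadal WAT against BAT for Cd74 (-0.33 to 0.88), H2-Aa (-0.77 to 0.41), H2-Ke6 (-0.24 to 0.27), H2-T22 (-2.13 to 0.36) and H2-T9 (-0.79 to 1.75), and between the WAT depots for H2-Q10 (-0.7 to 0.46).

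Depth limits the low genes most, as 14.6 to 46.5 percent of the fragments behind the FPKM scale lay on listed transcripts.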
